A study of Mus musculus with 35 samples.

Results

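The transcripts described here encode lysosomal cathepsins and the hydrolases and lysosomal proteins that accompany them. They are 9 genes (Ctss, Ctsd, Ctsb, Ctsz, Ctsc, Ctsh, Lgmn, Grn and Cd68) of the 32544 gene symbols in the count tables. They were chosen by name, but with earlier results of these data known, so the choice was not independent of the data. All 9 passed the filter on low counts in each comparison below. They were measured in the hippocampus of young adult male C57BL/6JOlaHsd mice, taken 24 hours or 2 weeks after an injection through a cannula into the amygdala. IAKA (intra-amygdala kainic acid) mice received kainic acid in PBS, which triggers status epilepticus, and lorazepam afterwards to curb the seizures, and control mice received PBS. Per the methods, the mice were perfused with PBS before the tissue was taken. RNA of each mouse was sequenced as total RNA (input), which reads out the level of a transcript with or without m6A, as RNA recovered with an antibody against m6A (N6-methyladenosine, a methyl mark on messenger RNA), or as both. At 24 hours the m6A libraries numbered 5 for IAKA and 3 for PBS, and at 2 weeks 6 for IAKA and 5 for PBS. Input libraries with at least 100000 counts numbered 3 for IAKA and 1 for PBS at 24 hours, and 6 for IAKA and 3 for PBS at 2 weeks.

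Lysosomes are the acidic organelles in which cells break down proteins, lipids and carbohydrates delivered by endocytosis, phagocytosis and autophagy. Cathepsins are their main proteases and are made as inactive precursors that are cleaved into the active enzyme in the acidic lumen, some of them by other cathepsins or by legumain. In the brain every cell type has lysosomes, but cathepsin S and CD68 are carried mostly by microglia and macrophages, whose lysosomes enlarge when they engulf debris, and many lysosomal genes share a short promoter element that is bound by the transcription factor TFEB and its relatives.

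Levels are given as CPM, the counts scaled to the same total in every library, and the log2 fold change of IAKA over PBS comes from a quasi-likelihood fit in edgeR with an adjusted p under 0.05 as the threshold. Total counts ran from 1652933 to 34564536 in the 19 m6A libraries and from 3057578 to 12694434 in the 13 input libraries used. The other 3 input libraries, all from 24 hours, held 3171, 4621 and 34486 counts and were left out. The presence of neuronal RNA was checked on 6 neuronal markers (Rbfox3, Snap25, Syt1, Camk2a, Slc17a7 and Gad1). Their summed level lay between 1627 and 5502 CPM in every m6A library and between 1876 and 4723 CPM in every input library used. Both lowest sums were those of IAKA mouse 8 at 24 hours. These markers cannot tell the hippocampus from other brain regions, so the hippocampal label itself was not checked. Tissue was not sorted, so fewer cells of a type and less RNA per cell cannot be told apart in any value below.

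IAKA mouse 8 at 24 hours stood apart from the other mice in both assays. Its libraries had the most genes with at least 1 count (28496 in m6A RNA and 28574 in input RNA, against 16813 to 27003 and 17896 to 25529 in the others). Of the 9 transcripts, 8 were at their lowest among the 24-hour IAKA libraries in this mouse, in m6A as in input RNA, and the other one, Ctsh, was at its highest. Its summed level of 10 markers of monocytes, macrophages and leukocytes was the highest of each assay (156 CPM in m6A and 117 CPM in input RNA), while its summed level of 10 microglia markers (200 and 129 CPM) was the lowest of the 24-hour IAKA libraries. Results at 24 hours are therefore given with and without it. The members' own values were part of this choice, so leaving mouse 8 out raises the IAKA levels of these 8 by construction. Values without it are no separate support for a difference.

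Promoter sequence was looked at because lysosomal genes are known for a shared element. RefSeq windows of 300 bases (250 before and 50 after the start site, GRCm38.p6, the assembly called mm10 in the submitters' processing notes) were given for 7 of the 9 genes, in 8 windows, and were searched on both strands for TCACGTGA, the core of the TFEB element, for CACGTG, which lies inside it, and for GAGGAAGT, the core of the site of PU.1, a transcription factor of macrophages and microglia. The excerpts below show the members that held one of the longer motifs. They run 5′ to 3′ along the gene's strand with the motif in capitals, as its reverse complement in Ctss and Ctsc.
Ctsd, chr7:142387908-142387937, minus strand, motif TCACGTGA: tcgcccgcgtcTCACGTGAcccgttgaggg
Ctss, chr3:95526773-95526802, plus strand, motif GAGGAAGT: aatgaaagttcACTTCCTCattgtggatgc
Ctsc, chr7:88277923-88277952, plus strand, motif GAGGAAGT: gtcactaactaACTTCCTCaggccacctcg
The motif began 99 bases upstream of the start site of the window in Ctsd, 2 bases upstream of it in Ctss and 151 bases upstream in Ctsc, whose window is set on a start site at 88278085, inside the annotated gene. TCACGTGA was in 1 of the 8 windows and in 0.974% of all 32851 windows, and GAGGAAGT was in 2 of the 8 and in 3.20% of all. CACGTG was in the windows of Ctsd and Lgmn and in 7.15% of all.

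At 24 hours, in m6A RNA, Ctsd, Cd68 and Ctsz lay about 2.3-fold to 2.5-fold higher in IAKA than in PBS mice, Ctsb 1.7-fold higher, and Ctss did not stand above the controls at all. None of the 9 transcripts passed the threshold of edgeR's quasi-likelihood test (0 of 9, adjusted p from 0.57 to 0.98), where 0.00607% of the 16470 genes tested did. At an unadjusted p under 0.05, 3 of the 9 (Ctsd, Cd68 and Ctsz) were higher in IAKA mice, against 4.02% of all genes. DESeq2 called 0 of the 9 and 0.947% of all genes. The voom method of limma, which weights each library by its quality, called 5 of the 9 (Ctsd, Ctsb, Ctsz, Ctsc and Cd68) and 6.8% of all genes. The median log2 fold change was 0.67 over the 9 and 0.08 over all genes tested.

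Ctsd encodes cathepsin D, the main aspartic protease of lysosomes. In m6A RNA at 24 hours its levels were 50.9, 52.8 and 57.1 CPM in the PBS mice and 38.6, 128, 141, 160 and 174 CPM in the IAKA mice. Apart from mouse 8, which lay below all controls, every IAKA mouse lay above every control. The log2 fold change was 1.18 ± 0.36 (SE; edgeR adjusted p = 0.57), and without mouse 8 it was 1.38 with an adjusted p of 0.0397 in edgeR, past the threshold, as were 0.279% of all genes in that fit.

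Cd68 encodes a heavily glycosylated membrane protein of macrophage and microglial lysosomes. Its levels were 3.43, 3.47 and 5.05 CPM in PBS and 3.04, 10.3, 12.1, 12.1 and 15.4 CPM in IAKA mice, so that 4 of the 5 IAKA mice lay above all controls and mouse 8 below them. The log2 fold change was 1.33 ± 0.42 (SE; edgeR adjusted p = 0.60) and 1.55 without mouse 8 (adjusted p = 0.069). IAKA mice 67 and 98 had the smallest m6A libraries, and their values of 12.1 CPM rest on 24 and 20 counts. In these mice Ctsz rests on 51 and 41 counts, Ctsc on 29 and 22, and Ctsh on 19 and 7.

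Ctsz encodes cathepsin Z, a carboxypeptidase that trims single residues from the ends of proteins. It was at 7.53, 15.0 and 16.5 CPM in PBS and at 7.27, 24.8, 25.8, 44.3 and 63.9 CPM in IAKA mice, with the same mouse below the controls. Ctsb encodes cathepsin B, an abundant cysteine protease that acts both within proteins and at their ends. It was at 134, 143 and 150 CPM in PBS and at 81.2, 218, 255, 304 and 409 CPM in IAKA mice. For both, the IAKA mice other than mouse 8 lay above every control.

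Lgmn encodes legumain, which cuts after asparagine and activates cathepsins, and Grn encodes progranulin, a secreted precursor whose granulins are formed and act in lysosomes. Lgmn was at 45.9 to 49.3 CPM in PBS and at 21.5 CPM in mouse 8 and 70.2 to 99.5 CPM in the other IAKA mice. Grn was at 16.1 to 32.8 CPM in PBS and at 21.1 CPM in mouse 8 and 38.3 to 67.2 CPM in the others. Without mouse 8, every IAKA library lay above every PBS library for 6 of the 9 transcripts (Ctsd, Ctsb, Ctsz, Lgmn, Grn and Cd68), where 7.12% of all genes tested did so. With mouse 8 this held for 0 of the 9 and for 2.62% of all genes.

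Ctsc, Ctsh and Ctss behaved otherwise at this time. Ctsc encodes cathepsin C, a dipeptidyl peptidase that activates the serine proteases of leukocyte granules, and its IAKA values of 11.3 to 23.7 CPM overlapped the PBS values of 5.58 to 13.7 CPM. Ctsh encodes cathepsin H, mainly an aminopeptidase, and lay at 4.23 to 13.3 CPM in the IAKA mice other than mouse 8, at 22.2 CPM in mouse 8 and at 5.37 to 9.46 CPM in PBS mice. Its log2 fold change of 0.65 became 0.07 without mouse 8. Ctss encodes cathepsin S, a cysteine protease of antigen-presenting cells that stays active outside the lysosome, and was at 40.8, 71.1 and 102 CPM in PBS and at 29.7, 49.9, 69.6, 92.5 and 93.5 CPM in IAKA mice. The groups overlapped throughout, with a log2 fold change of -0.15 ± 0.36 (SE; edgeR adjusted p = 0.98) and of 0.00 without mouse 8.

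The prefixes of the data columns put the m6A libraries in 3 sets (prefix 3, 4 or 5), and only prefix 4 held both groups at 24 hours, with 2 IAKA and 2 PBS mice, mouse 8 not among them. Within it the log2 fold changes were 1.39 for Ctsd, 1.67 for Ctsz and 1.48 for Cd68 (edgeR adjusted p = 0.018, 0.018 and 0.048), and 0.65 for Ctsb and 0.24 for Ctss (0.071 and 0.77). These were 3 of the 9 past the threshold, where 2.11% of all genes in that fit passed. Blocking on the prefix takes the difference between the groups from prefix 4 alone, so its values repeat these by design. With all 8 libraries none of the 9 passed under the block, and without mouse 8 there were 5 that did (Ctsd, Ctsb, Ctsz, Ctsc and Cd68), where 4.03% of all genes passed.

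**Figure D1:**
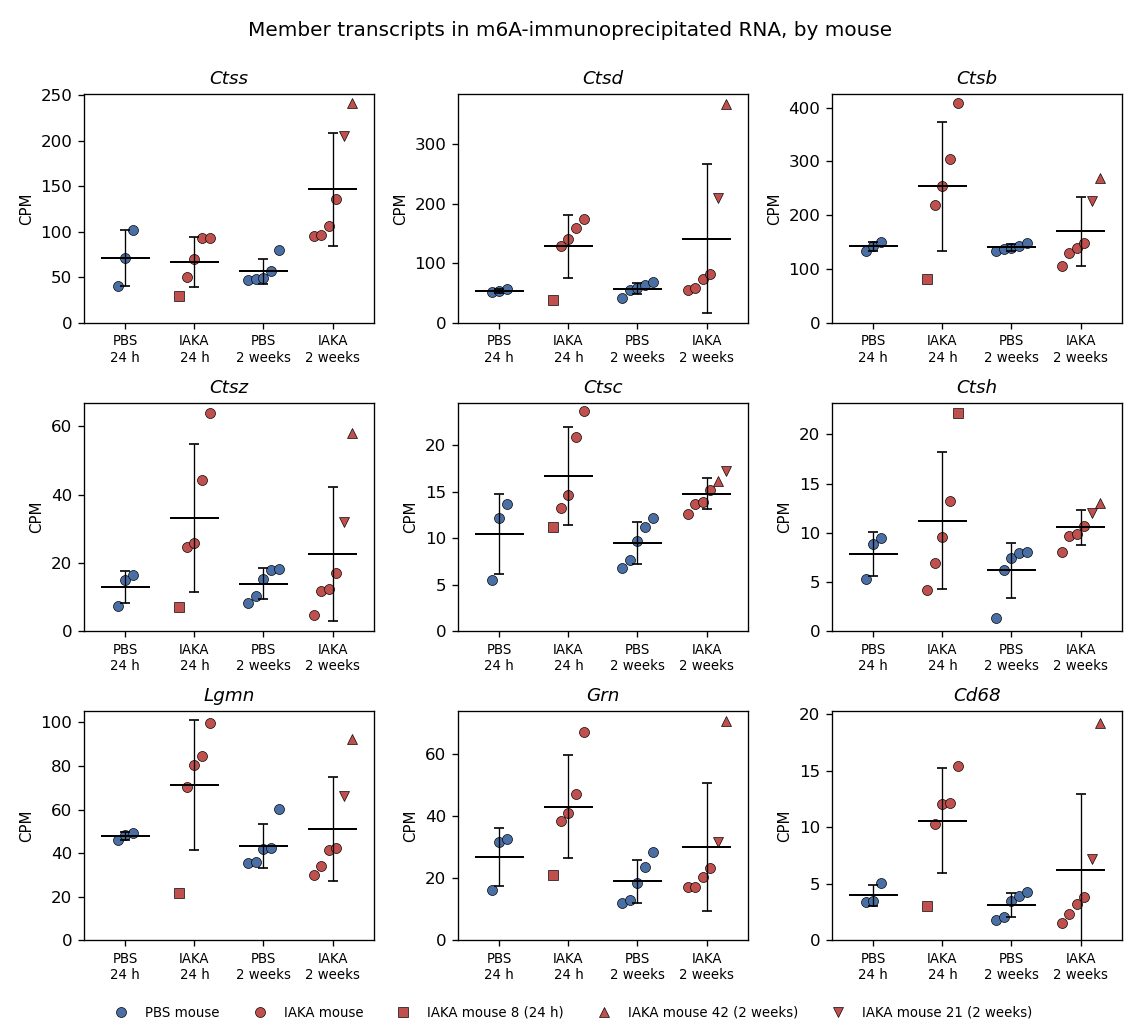
Level in CPM (linear axis from 0) of each of the 9 transcripts in the m6A libraries of PBS and IAKA mice at 24 hours and 2 weeks; each point is 1 mouse, the wide line is the group mean and the bar its SD (cut off at 0 for Cd68 in IAKA mice at 2 weeks). At 24 hours the square (mouse 8) lies below the other IAKA mice in every panel but Ctsh, and at 2 weeks the triangle (mouse 42) is the highest in every panel but Ctsc.

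In input RNA at 24 hours a single PBS mouse had a deep enough library, so the spread in the fit came from all 13 input libraries. Cd68 was at 1.34 CPM in the PBS mouse and at 3.23, 5.12 and 5.82 CPM in the IAKA mice, a log2 fold change of 2.08 ± 0.91 (SE; edgeR adjusted p = 0.51). Ctsc was at 9.93 CPM in the PBS mouse and at 12.5, 14.8 and 19.8 CPM in the IAKA mice (0.96 ± 0.33, SE; adjusted p = 0.41). These were the 2 of 9 transcripts for which all IAKA mice, mouse 8 included, lay above the PBS mouse, which was so for 10.9% of all 17644 genes tested.

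The others split by mouse as they did in m6A RNA. Ctsd was at 57.9 CPM in the PBS mouse, at 51.4 CPM in mouse 8 and at 104 and 140 CPM in mice 98 and 67. Ctsz was at 6.85 CPM in the PBS mouse, at 6.25 CPM in mouse 8 and at 16.4 and 24.6 CPM in the other IAKA mice. Without mouse 8, 7 of the 9 lay above the PBS mouse in both remaining IAKA mice, where 25.6% of all genes did. Ctss was again no higher, at 54.6 CPM in the PBS mouse and 16.9, 52.0 and 54.9 CPM in the IAKA mice. None of the 9 passed in edgeR, where 0% of all genes did; at an unadjusted p under 0.05 Ctsc and Cd68 were higher (2 of 9, against 4.99% of all genes), voom called Ctsc alone (1 of 9, against 6.1% of all genes) and DESeq2 called none (1.12% of all genes). In edgeR none of the 9 passed without mouse 8 either (1.18% of all genes), nor among the libraries without a prefix, which leave out mouse 8 too (2.32%). The median over the 9 was 0.96, and that over all genes, 0.27, was itself above 0 and fell to -0.04 when libraries were scaled by their totals alone.

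At 2 weeks Ctss was the transcript that set IAKA apart most evenly. In m6A RNA its levels were 47.3, 47.5, 49.1, 57.3 and 80.4 CPM in PBS mice, and in the 6 IAKA mice they had a lowest value of 94.7, a median of 121 and a highest value of 241 CPM. In input RNA they were 33.6, 46.3 and 55.1 CPM in PBS mice and 67.5, 90.2 and 200 CPM (lowest, median and highest) in the 6 IAKA mice. Every IAKA mouse lay above every PBS mouse in both assays. The log2 fold change was 1.45 ± 0.28 (SE) in m6A and 1.33 ± 0.37 (SE) in input RNA, with edgeR adjusted p values of 0.43 and 0.26, so neither passed the threshold. DESeq2 called both (adjusted p = 0.0026 and 0.022), and voom called the one in input RNA (adjusted p = 0.037).

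The value for Ctss moved little with the libraries used. Leaving out each library in turn gave 1.27 to 1.61 in m6A and 1.06 to 1.45 in input RNA. Within m6A prefix 5, the only set with both groups at 2 weeks (3 IAKA and 3 PBS mice), it was 1.32 (edgeR adjusted p = 0.96), and within the input libraries without a prefix (3 and 3 mice) it was 1.68 (adjusted p = 0.16).

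Ctsd in m6A RNA was at 42.3, 54.8, 58.3, 62.7 and 68.3 CPM in PBS mice and had a lowest value of 54.8, a median of 77.5 and a highest of 367 CPM in IAKA mice. Mice 42 and 21 held the highest IAKA values, 367 and 210 CPM, and the other 4 lay at 54.8 to 81.1 CPM, overlapping the controls. In input RNA Ctsd did not overlap, with 59.9, 72.0 and 81.7 CPM in PBS and 89.0, 138 and 377 CPM (lowest, median and highest) in IAKA mice. Its log2 fold changes were 1.35 ± 0.46 and 1.30 ± 0.44 (SE) in m6A and input RNA, with edgeR adjusted p values of 0.87 and 0.28; voom called it in input RNA (adjusted p = 0.0496).

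Mouse 42 had the highest IAKA value for 8 of the 9 transcripts in m6A RNA and for 8 of the 9 in input RNA, and mouse 21 was highest or next to it for 9 and 8. The exception for mouse 42 in both assays was Ctsc. Without mouse 42 the m6A log2 fold changes went from 1.07 to 0.30 for Cd68, from 1.35 to 0.82 for Ctsd, from 0.74 to 0.22 for Ctsz, from 0.72 to 0.29 for Grn, from 0.35 to 0.19 for Ctsb and from 0.30 to 0.06 for Lgmn, while Ctss, Ctsc and Ctsh stayed at 1.27, 0.70 and 0.77. The median over the 9 went from 0.74 to 0.30 in m6A and from 1.03 to 0.74 in input RNA, and over all genes tested it was -0.00 and 0.02 with all libraries.

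Ctsc and Ctsh, low in level, were the other transcripts without overlap in m6A RNA at 2 weeks. Ctsc was at 6.78, 7.70, 9.77, 11.2 and 12.2 CPM in PBS mice and had a lowest value of 12.7, a median of 14.5 and a highest of 17.2 CPM in IAKA mice (log2 fold change 0.72 ± 0.21, SE; edgeR adjusted p = 0.87). Ctsh was at 1.37, 6.23, 7.41, 7.92 and 8.06 CPM in PBS mice and had a lowest value of 8.07, a median of 10.3 and a highest of 13.1 CPM in IAKA mice (0.83 ± 0.33, SE; adjusted p = 0.87). For Ctsh the lowest IAKA and the highest PBS value, 8.07 and 8.06 CPM, are not distinguishable. In input RNA both overlapped, with IAKA values of 8.83 to 15.5 CPM for Ctsc and 5.89 to 12.2 CPM for Ctsh.

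Ctsz, Grn, Lgmn, Ctsb and Cd68 overlapped in m6A RNA at 2 weeks. In input RNA Ctsz did not, at 5.13, 7.52 and 7.55 CPM in PBS and 8.50, 15.3 and 36.5 CPM (lowest, median and highest) in IAKA mice. Cd68 rested on few counts there, with 0.57 CPM in PBS mouse 3 being 2 counts. In all, every IAKA mouse lay above every PBS mouse for 3 of the 9 in m6A RNA (Ctss, Ctsc and Ctsh), against 0.26% of the 16157 genes tested, and for 3 of the 9 in input RNA (Ctss, Ctsd and Ctsz), against 2.64% of the 13752 tested. Of the 9, 0 passed in edgeR in either assay, as did 0% of all genes in each; at an unadjusted p under 0.05, 4 were higher in m6A RNA (2.85% of all genes) and 5 in input RNA (8.41%). DESeq2 called Ctss in each assay, and with it 0.0928% of all genes in m6A and 0.844% in input RNA. With voom none of the 9 was called in m6A RNA (0.0124% of all genes), and Ctss and Ctsd were called in input RNA (2.49%).

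**Figure D2:**
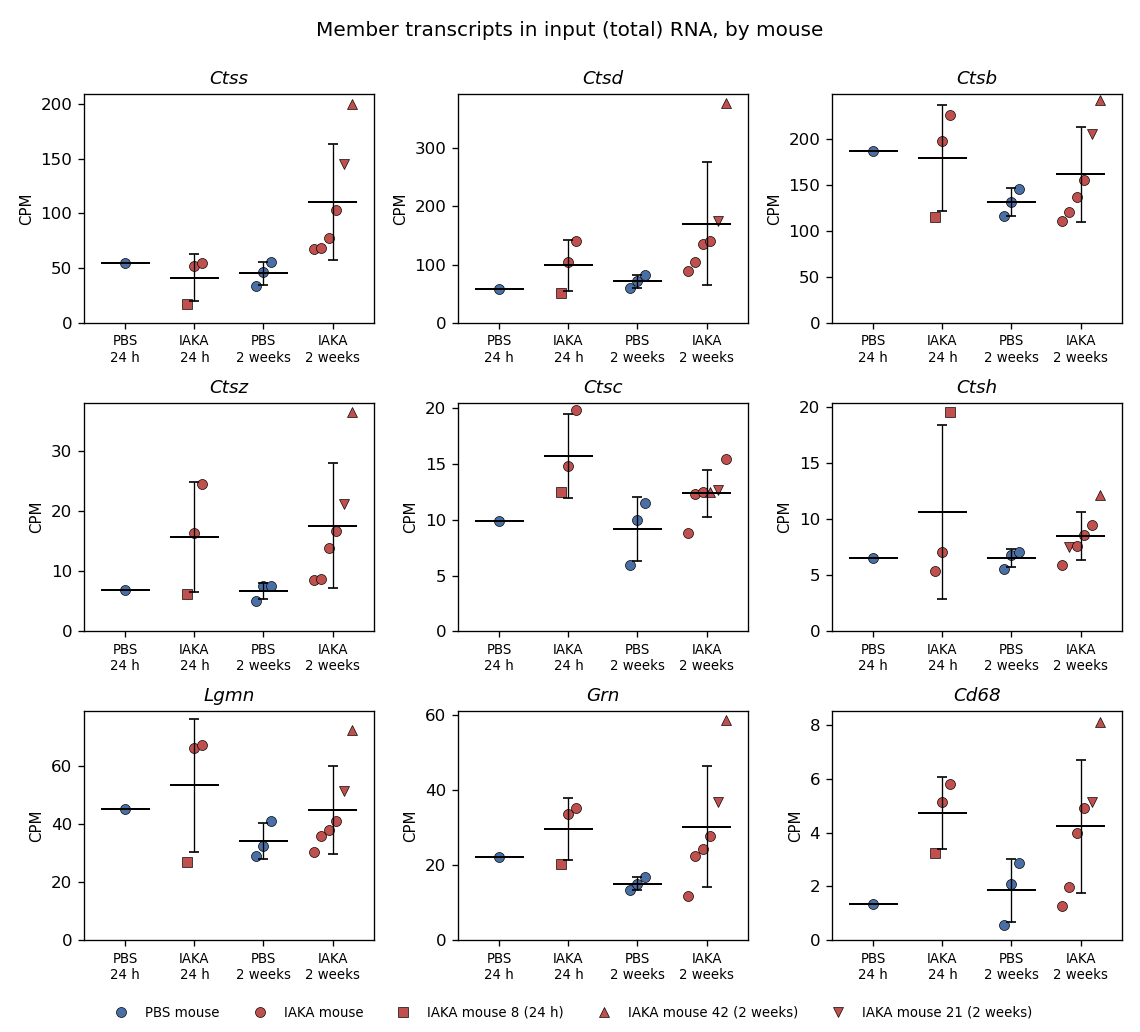
Level in CPM (linear axis from 0) of each transcript in the input libraries with at least 100000 counts; each point is 1 mouse, the wide line the group mean and the bar its SD where a group has more than 1 mouse. At 2 weeks all 6 IAKA mice lie above the 3 PBS mice for Ctss, Ctsd and Ctsz, and mouse 42 (triangle) is the highest for all but Ctsc.

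**Figure D3:**
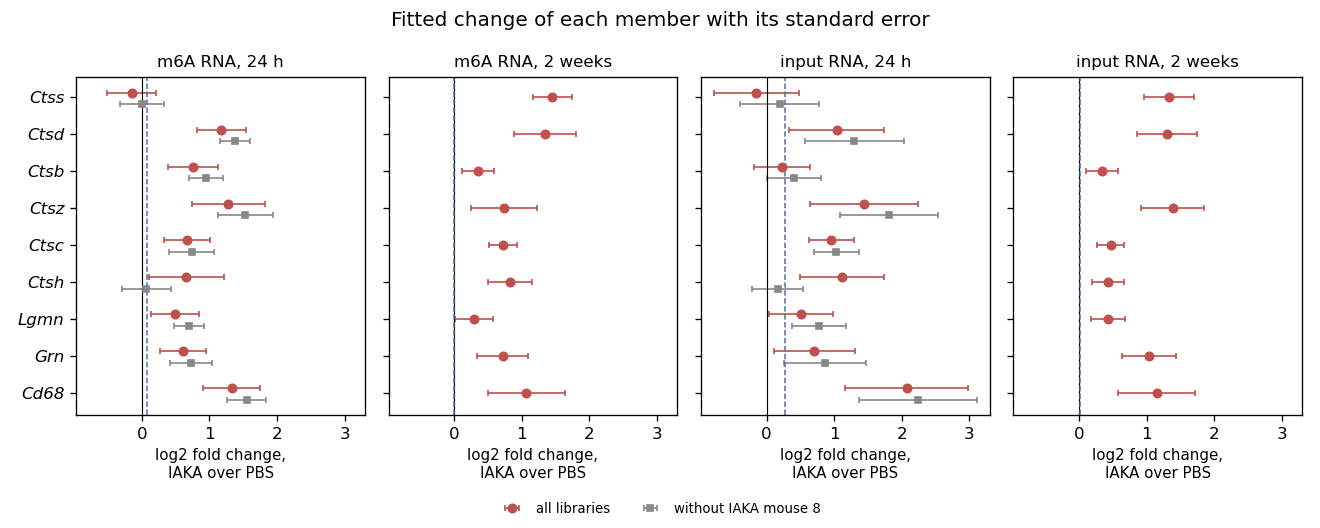
Log2 fold change of IAKA over PBS (points) with its standard error (bars) for each transcript in the 4 comparisons; the solid line is 0, the dashed line is the median of all genes tested, and grey squares leave out IAKA mouse 8. All points lie above 0 at 2 weeks, Ctss lies near 0 at 24 hours and at 1.45 and 1.33 at 2 weeks, and Ctsh drops to near 0 at 24 hours without mouse 8.

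The change of the IAKA effect between 24 hours and 2 weeks was tested as an interaction over all 19 m6A libraries. For Ctss the effect at 2 weeks exceeded that at 24 hours by 1.60 ± 0.46 on the log2 scale (SE; unadjusted p = 0.0022, edgeR adjusted p = 1.00), and by 1.49 without mouse 8. For the other 8 the difference lay between -0.55 (Ctsz) and 0.18 (Ctsh), each smaller than its SE. None of the 9 passed (0.00573% of 17440 genes did). Ctss alone had an unadjusted p under 0.05, as did 428 of the 17440 genes in either direction. Neither DESeq2 nor voom called any of the 9 (0.0287% and 0.356% of all genes), nor did edgeR without mouse 8 (0.00581%).

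Cell type markers were set beside these transcripts. The summed level of 10 microglia markers (Cx3cr1, P2ry12, Tmem119, Aif1, Csf1r, Itgam, Trem2, Tyrobp, Fcrls and Siglech) was 139 to 248 CPM in PBS and 189 to 465 CPM in IAKA mice in m6A RNA at 2 weeks, and 127 to 184 CPM against 183 to 352 CPM in input RNA. It overlapped in both assays, and mouse 42 had the highest sum in each. Of the 10, 9 had a log2 fold change above 0 in m6A and all 10 in input RNA, with medians of 0.70 and 0.65, and 0 passed the threshold in edgeR. At an unadjusted p under 0.05, 5 and 4 were higher, against 2.85% and 8.41% of all genes. At 24 hours the microglia sum was 185 to 263 CPM in PBS and 200 to 327 CPM in IAKA mice in m6A RNA, and 145 CPM against 129 to 220 CPM in input RNA. Of the 10, 7 had a log2 fold change above 0 in each assay then, with medians of 0.26 and 0.77, and 0 passed in edgeR. At an unadjusted p under 0.05, 0 were higher and 2 lower in m6A RNA (4.02% of all genes were higher). Of all 16470 genes there, 875 were under it in either direction, 662 of them higher. In input RNA 1 was higher and 0 were lower (4.99% of all genes were higher).

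Relative to the microglia marker sum of its own library, Ctss at 2 weeks was at 26.1 to 29.9% in PBS and 31.8 to 56.8% in IAKA mice in input RNA, without overlap. In m6A RNA it was at 19.1 to 36.0% and 35.4 to 72.6%, which touch at 1 mouse on each side. On this scale every IAKA mouse lay above every PBS mouse for 3 of the 9 in input RNA at 2 weeks (Ctss, Ctsd and Ctsz), against 0.313% of all genes tested. In m6A RNA this held for 0 of the 9 at 2 weeks (0.0248% of all genes) and for 0 of the 9 at 24 hours (1.73%). Ctsd was at 40.6 to 47.0% in PBS and 48.6 to 107% in IAKA mice in input RNA, and at 23.5 to 39.5% and 21.6 to 78.9% in m6A RNA, where the groups overlapped. The mean percentage was lower in IAKA than in PBS mice for Ctsb, Lgmn, Ctsc and Ctsh in input RNA (65.6% against 81.4% for Ctsb, and 5.37% against 5.53% for Ctsc) and for Ctsb, Lgmn and Ctsz in m6A RNA. The markers in the sum can themselves change with IAKA, and not all of them moved alike, so these percentages are not levels per microglial cell. No defining marker of microglia was at 0 in any group, and the part of microglia in these results was not tested.

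**Figure D4:**
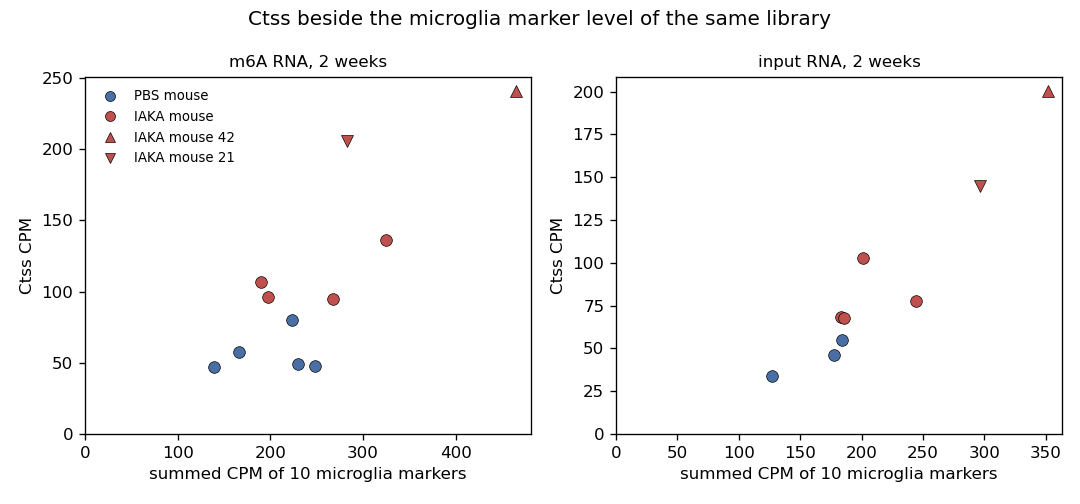
Ctss in CPM against the summed CPM of 10 microglia markers in the same library at 2 weeks, in m6A RNA (left) and input RNA (right), 1 point per mouse on linear axes from 0. In each assay every IAKA mouse lies above every PBS mouse in Ctss, the marker sums of the groups overlap, and mouse 42 is the highest on both axes.

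Other cell types were read the same way. Astrocyte markers (Gfap, Aqp4, Aldh1l1, Slc1a3, Gja1 and Vim) summed to 704 to 1424 CPM in PBS and 766 to 4051 CPM in IAKA mice in m6A RNA at 2 weeks, with mouse 42 the highest, and to 668 to 1072 against 1212 to 3590 CPM in input RNA, where the groups did not overlap. Markers of monocytes, macrophages and leukocytes (Ccr2, Ly6c2, Lyz2, Ptprc, Cd3e, Cd8a, S100a8, S100a9, Ms4a7 and Mrc1) summed to 26.0 to 55.5 CPM in PBS and 53.7 to 69.4 CPM in IAKA mice in m6A RNA and to 35.6 to 49.6 and 49.1 to 70.2 CPM in input RNA. Of these 10, the T cell gene Cd3e stayed under 1 CPM in every library of both groups and assays at 2 weeks.

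At 24 hours these markers also differed between the groups. Of the 10 leukocyte markers 9 were tested and all 9 had a log2 fold change above 0, with medians of 1.24 in m6A and 1.32 in input RNA. Their sum was 24.3 to 61.5 CPM in PBS and 45.5 to 156 CPM in IAKA mice in m6A RNA, which overlap, with mouse 8 the highest. The astrocyte markers had medians of 0.89 and 1.48, and their m6A sum was 1031 to 1497 CPM in PBS mice, 649 CPM in mouse 8 and 1770 to 3488 CPM in the other IAKA mice. The 4 endothelial markers (Cldn5, Pecam1, Flt1 and Cdh5) had medians of 0.38 and 1.93, and their m6A sum was 197 to 261 CPM in PBS and 287 to 451 CPM in IAKA mice, without overlap. Their input sum did overlap, at 879 CPM in the PBS mouse and 414 to 1197 CPM in IAKA mice. The neuronal markers had medians of -0.41 and -0.33. None of these genes passed the threshold in edgeR. At an unadjusted p under 0.05 in m6A RNA 1 leukocyte, 2 astrocyte and 1 endothelial marker were higher and 1 astrocyte marker was lower. Of all 16470 genes, 875 were under it in either direction, and 662 of them (4.02% of all) were higher. In input RNA 3 leukocyte, 3 astrocyte and 2 endothelial markers were higher and 3 neuronal markers were lower at that level. There 1628 of the 17644 genes were under it in either direction, and 880 of them (4.99% of all) were higher. The part of these cell types in the results at either time was not tested.

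Whether the antibody recovered these transcripts differently from the rest could be asked at 2 weeks, where 6 IAKA and 3 PBS mice had both libraries. The ratio of m6A to input CPM for Ctss was 1.24, 1.40 and 1.46 in the PBS mice and had a lowest value of 1.04, a median of 1.40 and a highest of 1.75 in the IAKA mice. For Ctsd it was 0.59, 0.84 and 0.92 in PBS and 0.41, 0.68 and 1.2 (lowest, median and highest) in IAKA mice, and Ctsb stayed within 0.95 and 1.15 in all 9 mice. The PBS and IAKA values overlapped for every one of the 9 transcripts. The share of all genes whose ratios overlapped was not computed.

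A fit over all libraries of this time point tested the ratio between groups, with other scaling and without pairing by mouse. It also held PBS mice 50 and 78, which had no input library among those used. Its values can thus differ from the ratios within mice. In PBS mice it put Ctss at 0.10 on the log2 scale (1.07-fold). It put Ctsc at -0.18, where the mean ratio within PBS mice was 1.11. In PBS mice the log2 ratio of m6A over input ran from -0.54 (Ctsd) to 0.82 (Ctsz) and none of the 9 passed (edgeR adjusted p from 0.48 to 0.93), where 2.31% of 16141 genes did. Of the 9, 0 had an unadjusted p under 0.05, against 3200 of the 16141 genes. The change of this ratio with IAKA ran from -0.67 ± 0.75 (Ctsz, SE) to 0.39 ± 0.44 (Ctsh, SE), and 0 of the 9 passed, as 0% of all genes passed. At an unadjusted p under 0.05 there were 0 of the 9, against 655 of the 16141 genes. For Ctss the change was 0.11 ± 0.46 (SE). The difference in Ctss between IAKA and PBS mice was thus of like size in both kinds of RNA, 1.45 and 1.33. With SEs of 0.46 for Ctss and 0.75 for Ctsz, changes of the ratio of that size were not detectable with these mice.

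**Figure D5:**
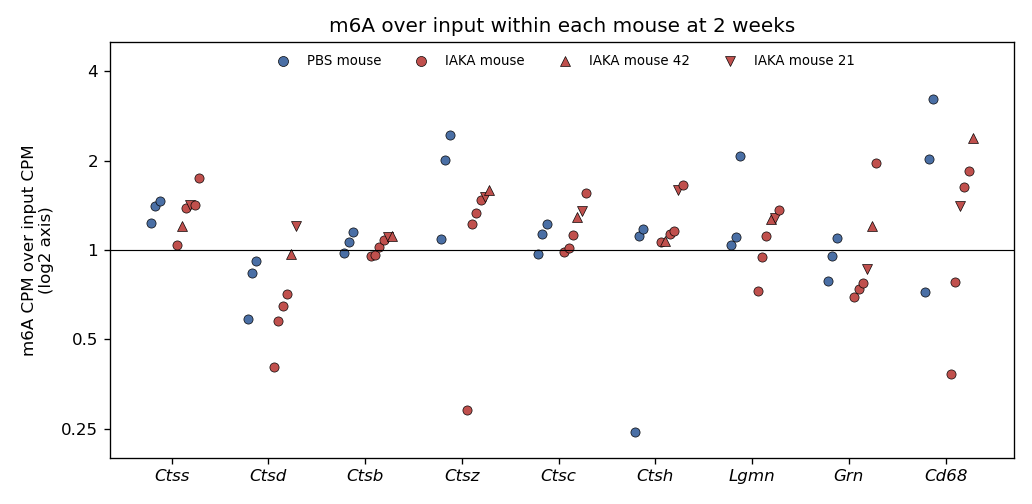
Ratio of m6A CPM to input CPM within each mouse at 2 weeks for the 9 transcripts, on a log2 axis, with 3 PBS and 6 IAKA mice per transcript; the line marks a ratio of 1. Treated and control mice overlap for all 9, and the spread is smallest for Ctsb and widest for Ctsz, Ctsh and Cd68.

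Among each other the 9 transcripts varied together to different degrees over the 19 m6A libraries, which share library sets and differ in depth. The correlation (Pearson's r of log2 CPM) of a transcript with the mean of the other 8 was 0.94 for Ctsd, 0.89 for Cd68, 0.82 for Ctsb, 0.81 for both Ctsz and Grn, 0.80 for Lgmn, 0.61 for Ctsc, 0.53 for Ctss and 0.13 for Ctsh. Among 9778 other genes with a mean of at least 10 CPM, the 5 whose levels followed the mean of the 9 most closely were C4b (0.93), Fcrls (0.92), C1qb (0.91), C1qc (0.90) and Anxa5 (0.89). C4b, C1qb and C1qc encode complement proteins, Fcrls is a microglia marker and Anxa5 encodes a protein that binds phosphatidylserine.

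The rest of the lysosomal machinery was read from lists written by hand, with 91 genes in all: 8 other cathepsins, 36 glycosidases, lipases and other hydrolases, 16 membrane proteins, 19 subunits of the vacuolar proton pump that acidifies the lumen, and 12 sorting receptors and transcription factors. In no comparison did any of them pass the threshold in edgeR, in either direction. At an unadjusted p under 0.05, 3 of the 87 tested were higher and none lower in m6A RNA at 24 hours, 2 of 86 were higher and none lower in m6A RNA at 2 weeks, 3 of 88 were higher and 9 lower in input RNA at 24 hours, and 11 of 83 were higher and 1 lower in input RNA at 2 weeks. Of all genes, 4.02%, 2.85%, 4.99% and 8.41% were higher at that level in these comparisons. In input RNA at 24 hours 1628 of 17644 genes were under it in either direction, 880 of them higher. At 2 weeks in input RNA 1938 of 13752 were, 1156 of them higher. The median log2 fold changes of the listed genes were 0.20, 0.16, 0.31 and 0.09 in these comparisons, against 0.67, 0.74, 0.96 and 1.03 for the 9 and 0.08, -0.00, 0.27 and 0.02 for all genes.

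By group, the other cathepsins had medians of 0.15 in m6A and 0.25 in input RNA at 2 weeks, the hydrolases 0.26 and 0.19, the membrane proteins 0.15 and 0.02, the proton pump 0.10 and -0.03, and the sorting receptors and transcription factors 0.04 and 0.20. At 24 hours the proton pump stood at 0.16 in m6A and -0.27 in input RNA. Of 9 inhibitors of these proteases (cystatins and others), 6 were tested in m6A RNA, with medians of 0.54 at 24 hours and 0.20 at 2 weeks, and 0 of them passed in either in edgeR. In each, 1 was higher at an unadjusted p under 0.05, against 4.02% and 2.85% of all genes. In input RNA 6 and 5 were tested, with medians of 0.27 and 0.12, and 0 passed. There 0 and 2 were higher at an unadjusted p under 0.05, against 4.99% and 8.41% of all genes.

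In GRCm38.p6, per RefSeq, Ctsd spans chromosome 7 from 142375910 to 142387827 and Ctsc, the only other member on that chromosome, from 88278024 to 88315861. Grn (102430507 to 102436809) and Cd68 (69664213 to 69666170) share chromosome 11. Ctss lies on chromosome 3 (95526786 to 95556405), Ctsb on 14 (63122462 to 63145923), Ctsz on 2 (174427494 to 174439039), Ctsh on 9 (90054267 to 90076095) and Lgmn on 12 (102394082 to 102439728). The counts are per whole gene, so no exon, intron or m6A site within them can be told apart.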

How the data were processed

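The authors deposited raw counts of reads per gene symbol for 4 sequencing lanes per library, with no normalization, from SMARTer stranded total RNA libraries. The submitters' processing notes name the build mm10, while aligner and counter were not given in the sources used here. Lanes were summed over 140 columns to 35 libraries. Another 8 columns held input counts of IAKA mouse 79 at 24 hours and PBS mouse 50 at 2 weeks. They were not used, since the labels list only an m6A sample for each of these mice. For 8 libraries the column name gives the assay, for 19 it was read as m6A from a numeric prefix, and for 8 as input from the lack of one.

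Input libraries under 100000 counts were left out. A count of 0 allows up to 3 counts, which covers counting error only. Groups were compared in R 4.3.3 with edgeR 4.0.16 (TMM, filterByExpr by group, robust quasi-likelihood fit, Benjamini-Hochberg over all genes tested, threshold 0.05). Only the groups compared entered each fit, except that all 4 input groups entered the input fit at 24 hours and the interactions. The SE is the absolute log2 fold change over the square root of F. Fits were tested on simulated data. The alternatives tried were DESeq2 1.42.0, limma 3.58.1 (voom with quality weights), library size as the only scaling, all genes without a filter, other choices of samples, a block for the library set or, as a replicate block, the mouse, and leaving out single libraries. Values within 1 library set, the removal of mouse 8 with a set block, the unblocked fit on paired mice, levels relative to the microglia marker sum and the counts of non-overlap without mouse 8 were added after seeing the data.

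Libraries of 1 group differed by more than sampling noise (chi-square per degree of freedom at least 5.12). The mouse numbers pair input and m6A libraries since the labels give the same animal. Over 9 mice at 2 weeks the correlation of deviations from group means was -0.02 to 0.54, and 7 correlated best with their own mouse.

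The 9 members, the lists and the markers were chosen with earlier results of these data known. The text names the 9 members, list genes only if past the threshold (up to 3 per list, comparison and direction), markers where a level is needed, and the 5 genes most like the members. Figures used Python 3.11.15, pandas 2.3.3, numpy 2.4.6 and matplotlib 3.10.9.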

Additional observations from a re-analysis of the deposited data

Results flagged for a closer look

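Over the 36 sets of values of 1 transcript in 1 group of 5 or 6 libraries, 5 held a library far from the others by Dixon's criterion, a criterion that chance meets in about 1 set in 20. In m6A RNA of PBS mice at 2 weeks, mouse 4 lay apart for Ctsh, at 1.37 CPM with the nearest mouse at 6.23 CPM, and for Lgmn, at 60.2 CPM with the nearest at 42.6 CPM. In m6A RNA of IAKA mice at 2 weeks, mouse 42 lay apart for Grn, at 70.6 CPM with the nearest at 31.8 CPM, and for Cd68, at 19.3 CPM with the nearest at 7.21 CPM. In input RNA of the same group, mouse 42 lay apart for Ctsd, at 377 CPM with the nearest at 175 CPM.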

How the results depend on the processing

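The number of the 9 transcripts past the threshold was 0 in all 7 comparisons and moved under these alternatives. In m6A RNA at 24 hours it was 5 with voom (6.8% of all genes tested), 3 within prefix 4 (2.11%), 5 without mouse 8 and with the set block (4.03%), and 0 to 1 when each library was left out, the 1 being without mouse 8 (0.279%). It was 1 with DESeq2 in m6A RNA at 2 weeks (0.0928%), 1 with voom in input RNA at 24 hours (6.1%), and 1 with DESeq2 (0.844%) and 2 with voom (2.49%) in input RNA at 2 weeks. Of the values of single transcripts under settings other than left-out libraries, 335 kept their direction and side of the threshold, 18 newly passed it and 25 changed sign, and of those with a library left out 847, 1 and 43 did. The sign changes were all of small values or of differences between effects, and their causes were not tested. In m6A RNA at 24 hours Ctss became 0.24 with the set block, 0.24 within prefix 4 and 0.24 with the block and without mouse 8, and Ctsh became -0.012 with voom. In m6A RNA at 2 weeks Ctsb became -0.0049 with voom. In input RNA at 24 hours Ctsb became -0.059 when scaled by library size, and Ctss became 0.15 with voom, 0.053 with the set block, 0.24 with all 7 labelled libraries and 0.19 within the libraries without a prefix. In the change of the effect with time, scaling by library size gave -0.052 for Ctsc and -0.0087 for Grn, and voom gave -0.91 for Ctsd, -0.077 for Ctsc and -0.037 for Grn. In m6A over input, scaling by library size gave 0.10 for Ctsb and 0.041 for Ctsc, and Grn became -0.32 with the mouse as a replicate block and -0.30 on the same mice without it. In the change of that ratio with IAKA, Ctsb became -0.022 when scaled by library size, the replicate block gave -0.067 for Ctsd and 0.050 for Grn, and the same mice without it gave -0.016 for Ctss, 0.080 for Grn and 0.11 for Cd68. With the block, none of the 9 passed in either. Leaving out each library gave -0.41 to 0.21 for Ctss in m6A and -0.40 to 0.19 in input RNA at 24 hours. For the change with time it gave -0.33 to 0.38 for Ctsd, -0.20 to 0.33 for Ctsc, -0.025 to 0.79 for Ctsh and -0.30 to 0.37 for Grn. For m6A over input it gave -0.059 to 0.22 for Ctss, -0.043 to 0.21 for Lgmn and -0.10 to 0.23 for Grn, and for its change with IAKA -0.075 to 0.40 for Ctss, -0.50 to 0.48 for Ctsd, -0.16 to 0.18 for Ctsb, -0.38 to 0.080 for Lgmn and -0.90 to 0.24 for Cd68. The input fit at 24 hours could not be fitted without its only PBS mouse. Scaling by library size moved the median of all genes from 0.27 to -0.04 in input RNA at 24 hours and from 0.07 to 0.31 in m6A over input. Depth limits Cd68 most, with as few as 2 counts in a library. In m6A RNA at 24 hours the small libraries of IAKA mice 67 and 98 held 19 and 7 counts of Ctsh.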
